A study of Homo sapiens with 9 samples.

Results

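Prostaglandin E2 (PGE2) synthesis, transport, breakdown and reception were followed through 10 genes in HCT116, a human colon cancer cell line. The genes are PTGS1, PTGS2, PTGES, PTGES2 and PTGES3 for synthesis, SLCO2A1 and ABCC4 for transport, HPGD for breakdown, and PTGER2 and PTGER4 for reception. All probe sets that the array annotation gives to these genes alone were taken, which are 22 of 54675 probe sets, or 10 of 19775 named genes. The 9 cultures, 3 of control cells, 3 of TIG1A cells and 3 of TIG1B cells, had each been hybridised to an Affymetrix HG-U133 Plus 2.0 array. Each line carries pSwitch, the plasmid for the mifepristone-activated regulator, and every culture received mifepristone (MFP), at 5 nM for 24 h by the sample labels and the study's methods, whereas the series description gives 5 µM overnight. Control cells hold an empty vector. TIG1A and TIG1B cells express a tagged isoform, of 294 or 228 amino acids, of the protein of tazarotene-induced gene 1 (TIG1, gene symbol RARRES1) from a vector that this regulator switches on. Every group is 1 stable clone, so the TIG1 isoform and other differences between clones cannot be told apart.

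PGE2 is made from arachidonic acid, a fatty acid freed from membrane lipids. The cyclooxygenases PTGS1 (COX-1, made at a steady level in many tissues) and PTGS2 (COX-2, inducible) convert it to prostaglandin H2, and PGE synthases turn that into PGE2. PGE2 leaves cells partly through the export pump ABCC4 and is taken up again by SLCO2A1, after which HPGD inactivates it. Outside the cell it acts on the receptors EP2 and EP4 (PTGER2 and PTGER4), which raise cyclic AMP and through it the activity of the transcription factor CREB. In colon tumours PTGS2 is known to be high and HPGD low, and PGE2 is known to promote growth.

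The question addressed was whether any step of this pathway differed in RNA level between cells expressing either TIG1 isoform and control cells, and between both TIG1 lines. In TIG1A cells, the exporter gene ABCC4 was lower on 2 of its 3 measured probe sets, each by about 2.0-fold, and the EP4 receptor gene PTGER4 was 1.94-fold higher on its measured probe set. No measured probe set of the synthesis genes passed the test. In TIG1B cells no member passed, with PTGER4 at 1.81-fold over control and an adjusted p of 0.0858 by limma. PTGS2, HPGD and PTGER2 were dim on every probe set in all groups, so the filter on low signal left the inducible cyclooxygenase, the PGE2-degrading enzyme and the EP2 receptor out of the tests.

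Signal intensities are given on a linear scale and had been scaled globally by the authors, with array medians of 59.9 to 73.9. Here a probe set counts as measured if 2 or more of the 3 arrays in some group reached their own median on it. RARRES1 checked the labels. On probe set 206392_s_at the control cells had an intensity of 4.24 ± 1.19 (mean ± SD, n = 3), below the median of all their arrays, while TIG1A cells had 62880 ± 4179 and TIG1B cells 39340 ± 4496. Arrays correlated at 0.927 to 0.958 within groups and at 0.904 to 0.950 between groups, and 0 pairs were identical. All 6 genes of the colon epithelial list (EPCAM, KRT8, KRT18, KRT19, CDH1 and VIL1) had a measured probe set, although that of VIL1 averaged only 26.9, 53.2 and 76.7 in control, TIG1A and TIG1B cells. Their summed signal was 119000 to 131000, 108000 to 121000 and 105000 to 137000 in these groups. Here and below, such sums take only the brightest probe set of each gene. Within the list, KRT19 fell on probe set 201650_at in both lines, from 17990 ± 632 in control to 11380 ± 351 in TIG1A (adjusted p = 0.0267 by limma) and 11380 ± 884 in TIG1B cells (0.0435). CDH1 rose on 201131_s_at in TIG1A cells, from 4232 ± 506 to 6360 ± 521 (adjusted p = 0.0481 by limma), and was 4888 ± 96.2 in TIG1B cells (adjusted p = 0.449). Of markers of other cells, 1 of 3 leukocyte, 1 of 4 fibroblast and 1 of 3 endothelial genes were measured. Summed signals of the leukocyte genes were 81.3 to 164 in control, 52.0 to 58.1 in TIG1A and 86.2 to 145 in TIG1B cells, and those of the endothelial genes were 169 to 244, 92.8 to 141 and 122 to 178. The summed fibroblast signal was 533 to 985, 1410 to 1850 and 937 to 1060, with COL1A1 as the measured gene. Its probe set 1556499_s_at, the one in the sum, rose in TIG1A cells (adjusted p = 0.0169 by limma). Its other 2 measured probe sets lay below 0 there and did not pass (log2 fold changes −0.13 and −0.59, adjusted p = 0.832 and 0.151). The part of these markers in the results below was not tested. As in any bulk RNA sample, fewer expressing cells and less RNA per cell cannot be told apart.

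The DNA just upstream of the start of a gene carries part of its regulation, and the windows of 3 members are shown, those of the receptor and the exporter that passed the test in TIG1A cells and that of PTGS2, the inducible gene that stayed dim. The windows cover the 250 bases before the annotated RefSeq start (GRCh38.p14), on the strand of the gene, at chr5:40679665-40679914 for PTGER4 (plus strand), chr13:95301452-95301701 for ABCC4 (minus strand) and chr1:186680424-186680673 for PTGS2 (minus strand). Capitals mark matches on either strand to TGACG (the core of the site read by CREB), GGGCGG (GC box), TATAAA and CCAAT, none of which overlap one another in these windows.
PTGER4: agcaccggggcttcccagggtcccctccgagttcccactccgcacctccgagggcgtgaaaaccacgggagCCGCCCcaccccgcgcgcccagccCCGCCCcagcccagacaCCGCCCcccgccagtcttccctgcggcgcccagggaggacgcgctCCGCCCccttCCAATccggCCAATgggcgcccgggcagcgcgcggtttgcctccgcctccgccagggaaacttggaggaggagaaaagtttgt
ABCC4: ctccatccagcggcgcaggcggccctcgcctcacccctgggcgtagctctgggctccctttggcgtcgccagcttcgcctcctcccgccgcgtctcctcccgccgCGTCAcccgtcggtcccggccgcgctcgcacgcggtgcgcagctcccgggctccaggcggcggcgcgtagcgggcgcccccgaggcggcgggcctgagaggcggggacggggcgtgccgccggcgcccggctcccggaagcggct
PTGS2: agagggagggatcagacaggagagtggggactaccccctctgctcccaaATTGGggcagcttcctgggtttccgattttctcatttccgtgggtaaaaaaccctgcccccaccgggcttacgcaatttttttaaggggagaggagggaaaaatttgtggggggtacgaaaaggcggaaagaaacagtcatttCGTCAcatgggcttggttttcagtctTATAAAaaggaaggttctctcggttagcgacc

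The PTGER4 window had 72.8% G and C, the ABCC4 window 80.4% and the PTGS2 window 50.4%. The median was 58.0% over the first window that the table lists for each gene. PTGER4 held 4 GC boxes, the farthest 179 and the nearest 93 bases before the start, and CCAAT at 83 and 74 bases. ABCC4 held 1 TGACG, at 145 bases. In PTGS2, TGACG lay at 58, TATAAA at 32 and CCAAT at 201 bases before the start, each counted to the first base of the match. Of 27303 such windows, 1 for each gene, 21.7% held TGACG, 42.3% GGGCGG, 11.1% TATAAA and 33.0% CCAAT. A match describes letters in the window, not a site in use in these cells. The table holds windows for 9 of the 10 members, and SLCO2A1 is the one without.

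TIG1A cells were compared with control cells first. Of the 10 measured member probe sets, which belong to 7 genes, 3 passed at an adjusted p under 0.05 by limma (2 lower, 1 higher), beside 6.06% of all 29977 measured probe sets (3.2% lower and 2.86% higher). The groups did not overlap on 7 of the 10, beside 30.7% of all measured probe sets. The median log2 fold change of the member probe sets was −0.24, with 3 above and 7 below 0, beside −0.04 over all measured probe sets. Over all 22 member probe sets, dim ones included, the median was 0.02, beside −0.13 over the whole array.

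PTGER4 (chromosome 5, 40679915 to 40746800) encodes EP4, the PGE2 receptor that couples to cyclic AMP. Its probe set 204897_at had intensities of 217, 136 and 171 on the control arrays, 370, 316 and 314 on the TIG1A arrays and 356, 314 and 265 on the TIG1B arrays. Every array of both TIG1 lines lay above the highest control array, and the TIG1 lines overlapped each other. In TIG1A cells the signal was 333 ± 31.8 against 174 ± 40.5 in control cells (SD, n = 3), a log2 fold change of 0.95 (95% interval 0.48 to 1.43, adjusted p = 0.0382 by limma). In TIG1B cells it was 312 ± 45.4, a log2 fold change of 0.85 (0.38 to 1.32, adjusted p = 0.0858), which did not pass. The difference between both TIG1 lines was 0.10 (−0.37 to 0.58, adjusted p = 0.877 by limma). The call in TIG1A cells was close to the threshold. It held under 7 of 19 alternative settings, among them the methods' t-test without adjustment, which is counted here as held. Log2 fold changes ran from 0.78 to 1.12 over all of them, and the highest adjusted p was 0.155. Leaving out 1 array gave 0.106 (control replicate 2), 0.0819 (control replicate 3), 0.0953, 0.103 and 0.101 (TIG1A replicates 1, 2 and 3), 0.0706 (TIG1B replicate 2) and 0.0614 (TIG1B replicate 3). PTGER4 is among the genes that the study itself picked from these arrays for TIG1A cells, so its rise is not independent evidence. The other PTGER4 probe set, 204896_s_at, was dim at 9.60 to 25.6 on all arrays and was not tested.

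ABCC4 (chromosome 13, 95019835 to 95301451) encodes MRP4, an ATP-driven pump that exports PGE2 and cyclic nucleotides. Its probe set 1554918_a_at read 1162, 1150 and 1059 on the control arrays, 539, 586 and 539 on the TIG1A arrays and 744, 871 and 945 on the TIG1B arrays. No groups overlapped, with control highest, TIG1B between and TIG1A lowest. The TIG1A signal was 555 ± 27.1 against 1124 ± 56.1 in control cells, a fall of 2.02-fold (log2 fold change −1.02, 95% interval −1.33 to −0.70, adjusted p = 0.0129 by limma). Probe set 1555039_a_at read 717, 794 and 698 on the control arrays, 354, 386 and 366 on the TIG1A arrays and 489, 542 and 553 on the TIG1B arrays. The order of the groups was the same, again with no overlap. Its TIG1A signal was 369 ± 15.9 against 736 ± 51.2 (log2 fold change −0.996, −1.28 to −0.71, adjusted p = 0.0106 by limma).

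The third measured ABCC4 probe set differed in part. Probe set 203196_at read 1395, 1398 and 929 on the control arrays, 730, 891 and 854 on the TIG1A arrays and 1860, 1368 and 1417 on the TIG1B arrays. All TIG1A arrays lay below all control arrays, while the TIG1B arrays overlapped control, and control replicate 3 sat close to the TIG1A arrays. The TIG1A log2 fold change was −0.57 (−1.06 to −0.08, adjusted p = 0.149 by limma), which did not pass, and it passed under 0 of 20 alternatives (adjusted p from 0.0537). The fourth, 243928_s_at, was dim at 5.46 to 40.6. The calls of the first and second probe set held under 17 and 18 of 20 alternatives, with log2 fold changes of −1.06 to −0.85 and −1.03 to −0.83. Both missed the threshold with no filter (0.0846 and 0.0809) and with the 6 arrays of the comparison alone (0.0547 and 0.055). The first also missed it without TIG1A replicate 3 (0.0544). The lowest p over the alternatives, 6.27e-05 and 0.000121, were those of the methods' t-test without adjustment, which is counted here as held.

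**Figure D1:**
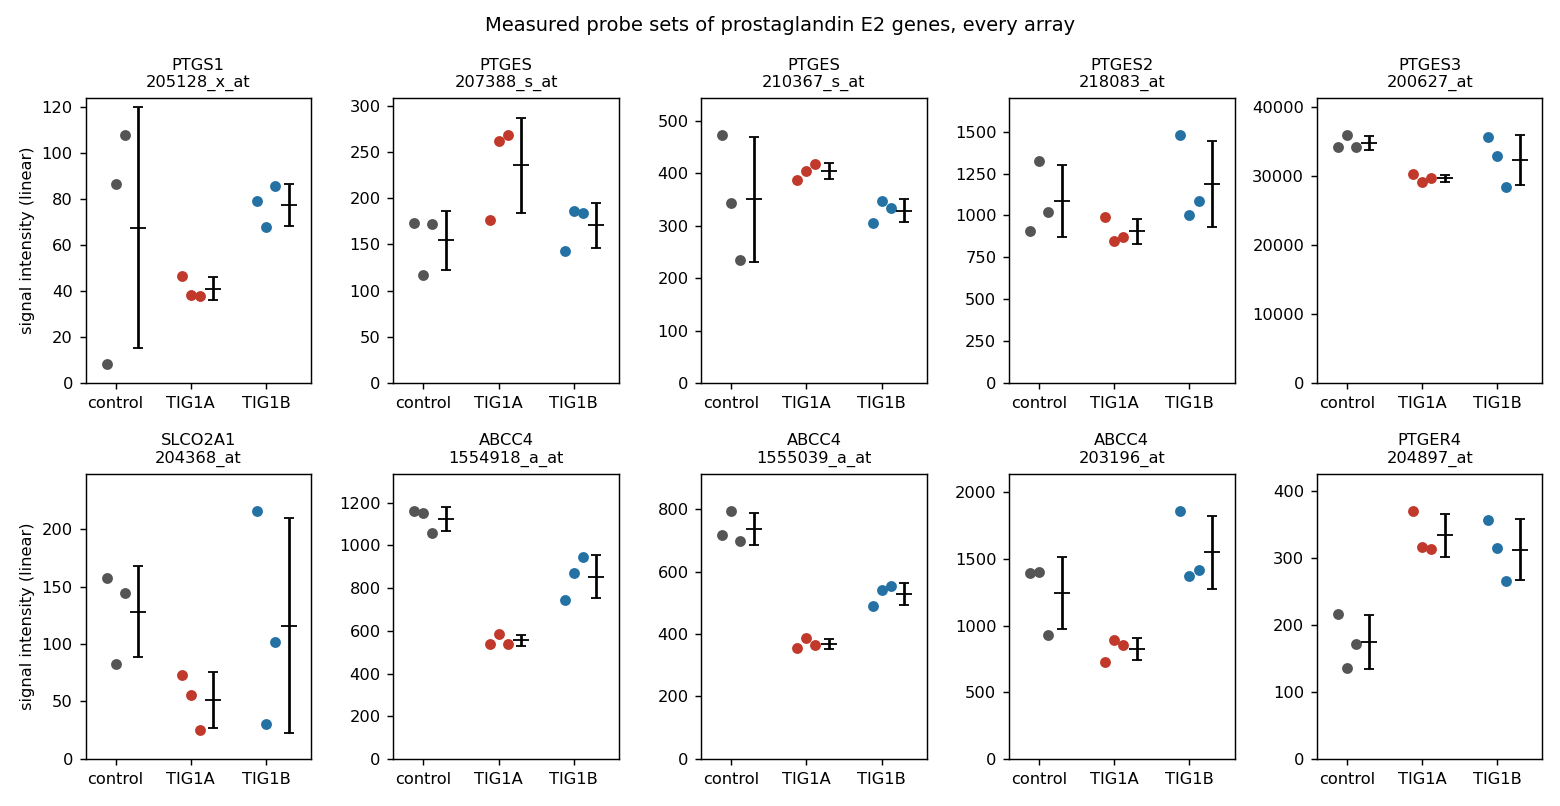
Signal intensity (linear scale, each panel with its own axis from 0) of the 10 measured member probe sets on the 3 control, 3 TIG1A and 3 TIG1B arrays; points are arrays, and the bar beside them is the mean with its SD. The TIG1A arrays lie below all control arrays for the 3 ABCC4 probe sets and above them for PTGER4, and 1 low control array (8.39) widens the PTGS1 panel.

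SLCO2A1 (chromosome 3, 133932701 to 134029925) encodes the prostaglandin transporter, which carries PGE2 back into cells. Its probe set 204368_at read 158, 83.0 and 144 on the control arrays, 72.7, 56.0 and 25.0 on the TIG1A arrays and 216, 30.6 and 102 on the TIG1B arrays. The TIG1A arrays all lay below control, near or under the array medians, and the TIG1B arrays spread over the whole range. With log2 fold changes of −1.40 (−3.05 to 0.25, adjusted p = 0.265 by limma) and −0.50 (−2.15 to 1.154, adjusted p = 0.749) neither line differed from control beyond the spread. The intervals are wide enough to hold both no change and a several-fold one.

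Among the synthesis genes, PTGS1 (chromosome 9, 122370533 to 122395703) had 4 probe sets, of which 1 was measured. Its name, 205128_x_at, marks probes that can match other transcripts. It read 8.39, 86.7 and 108 on the control arrays, 46.7, 38.5 and 37.8 on the TIG1A arrays and 79.1, 67.7 and 85.7 on the TIG1B arrays. Control replicate 1 lay far below the other control arrays, and the TIG1A arrays lay between them. The log2 fold change was −0.07 in TIG1A cells (−2.05 to 1.91, adjusted p = 0.97 by limma), and it became 0.44 or 0.60 without control replicate 2 or 3, so that even its sign rests on single arrays. In TIG1B cells it was 0.85 (−1.13 to 2.83, adjusted p = 0.636), and −0.32 without control replicate 1.

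PTGES (chromosome 9, 129738349 to 129753042), the inducible microsomal PGE synthase that works with PTGS2, had both of its probe sets measured. Probe set 207388_s_at read 173, 117 and 172 on the control arrays, 176, 262 and 268 on the TIG1A arrays and 143, 186 and 183 on the TIG1B arrays. The lowest TIG1A array only just exceeded the highest control array. Its log2 fold change in TIG1A cells was 0.61 (0.06 to 1.16, adjusted p = 0.164 by limma). Probe set 210367_s_at read 472, 343 and 235 on the control arrays, 387, 405 and 418 on the TIG1A arrays and 305, 347 and 334 on the TIG1B arrays, and here the TIG1A arrays lay inside the control range. Its value was 0.26 in TIG1A cells (−0.29 to 0.81, adjusted p = 0.533). In TIG1B cells the values were 0.16 (adjusted p = 0.761) and −0.04 (adjusted p = 0.95 by limma).

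PTGES2 (chromosome 9, 128120693 to 128128440), a second membrane-associated PGE synthase, had 1 probe set, 218083_at. It read 910, 1325 and 1023 on the control arrays, 992, 847 and 874 on the TIG1A arrays and 1479, 1002 and 1086 on the TIG1B arrays, with the TIG1 lines on either side of control and both overlapping it. The log2 fold changes were −0.25 (−0.72 to 0.23, adjusted p = 0.487) and 0.13 (−0.35 to 0.60, adjusted p = 0.778 by limma).

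PTGES3 (chromosome 12, 56663349 to 56688284) encodes p23, which acts both as cytosolic PGE synthase and as a cochaperone of HSP90. Its probe set 200627_at read 34190, 35930 and 34210 on the control arrays, 30250, 29190 and 29660 on the TIG1A arrays and 35630, 32900 and 28460 on the TIG1B arrays. All TIG1A arrays lay below all control arrays by a small margin, while TIG1B spread over both ranges. The signal was 29700 ± 528 in TIG1A against 34780 ± 999 in control cells, a log2 fold change of −0.23 (−0.53 to 0.07, adjusted p = 0.315 by limma), and −0.11 (−0.41 to 0.19, adjusted p = 0.685) in TIG1B cells. For this strongly expressed gene the intervals exclude a 2-fold difference in either line.

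**Figure D2:**
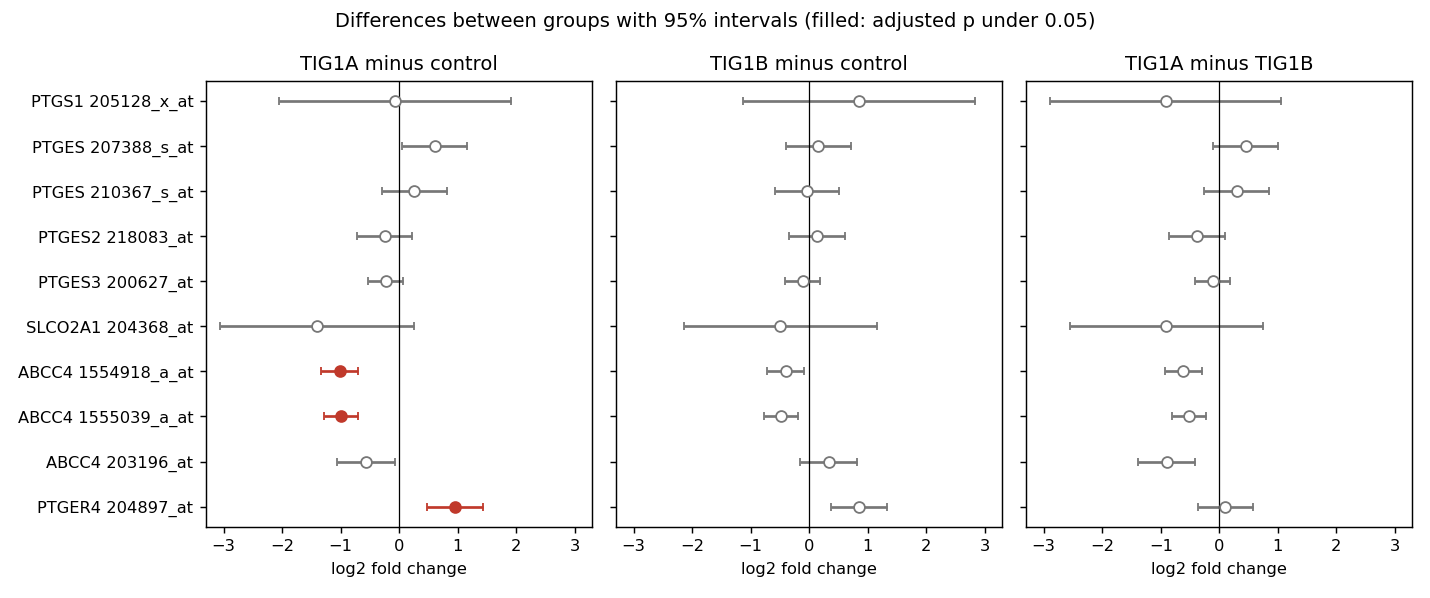
Log2 fold change (horizontal axis) of each measured member probe set with its 95% interval, with 1 panel for each line minus control and 1 for TIG1A minus TIG1B; filled points have an adjusted p under 0.05 by limma. Filled points are found in the first panel alone, for ABCC4 1554918_a_at (−1.02), ABCC4 1555039_a_at (−0.996) and PTGER4 (0.95).

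The remaining 12 member probe sets were dim. They belong to 6 genes, of which PTGS2 (chromosome 1, 186671791 to 186680423), HPGD (chromosome 4, 174490175 to 174522893) and PTGER2 (chromosome 14, 52314312 to 52328598) had no other. Their values ran from 2.58 to 93.8, and 5 of 108 reached the median of the array. Both PTGS2 probe sets, 1554997_a_at and 204748_at, stayed between 3.58 and 40.0 and between 7.50 and 50.8. The 4 HPGD probe sets ran from 2.58 to 66.9 and the PTGER2 probe set from 6.40 to 72.9, its highest value being on TIG1A replicate 1. Both TIG1 lines overlapped control on every probe set of these genes other than HPGD 211549_s_at in TIG1B cells, and no fold is given because the signal was near or below the array median in all groups. The arrays say for these genes that no signal stood well above the bulk of the probe sets, not that no RNA was present.

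**Figure D3:**
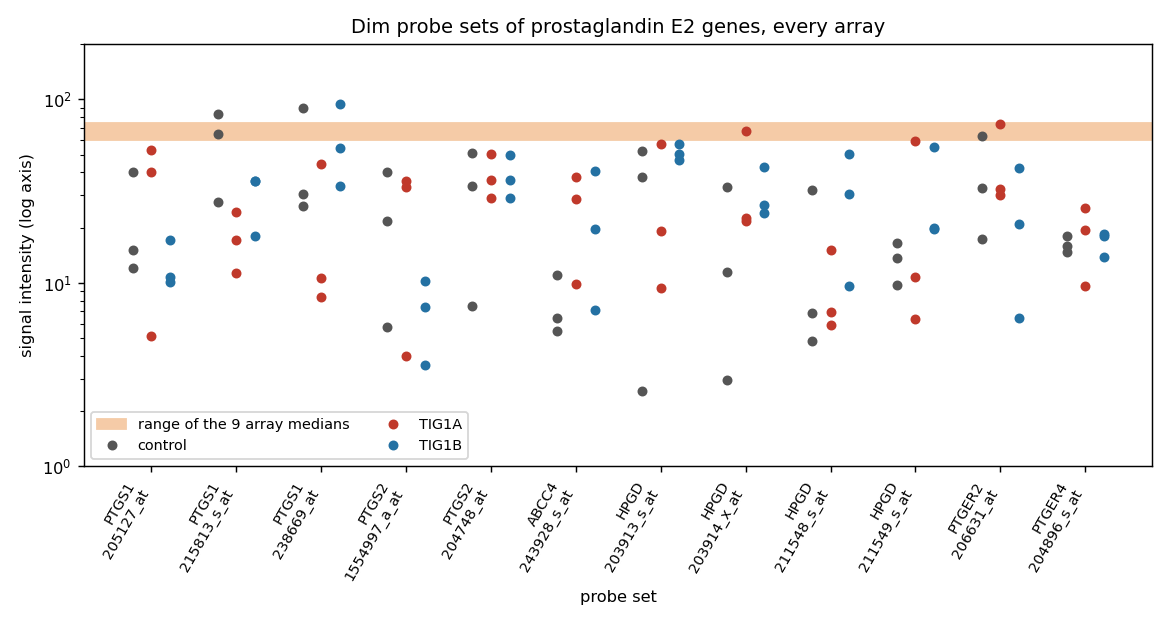
Signal intensity (log axis) of the 12 dim member probe sets on every array, with points coloured by group and the range of the 9 array medians (59.9 to 73.9) as a band. Nearly all points, among them every PTGS2 value, lie below the band.

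TIG1B cells were then compared with control cells. None of the 10 measured member probe sets passed (0 by limma after adjustment, beside 1.78% of all measured probe sets). At an unadjusted p under 0.05, limma gave 3 (all: 18.5%) and the methods' t-test 3 (all: 15.3%). Groups did not overlap on 3 probe sets (all: 24.9%), those of PTGER4 and of the first and second ABCC4 probe set, which are also the 3 that limma gave without adjustment. The ABCC4 values were −0.40 (−0.72 to −0.09, adjusted p = 0.176) and −0.48 (−0.77 to −0.19, adjusted p = 0.101 by limma). The third ABCC4 probe set had 0.33 (−0.16 to 0.82, adjusted p = 0.449), opposite in sign, so that the probe sets of this gene disagreed in TIG1B cells. The median over the member probe sets was 0.05, beside −0.03 over all measured probe sets. As TIG1A and TIG1B cells were set against the same control arrays, their comparisons are not independent of each other.

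TIG1A and TIG1B cells were finally compared directly, which tests whether the lines differ. Again 0 of 10 passed by limma, beside 0.417% of all measured probe sets. Limma gave 3 at an unadjusted p under 0.05 (all: 13.3%) and the methods' t-test 5 (all: 15.9%), and the groups did not overlap on 6 (all: 24.1%). The 3 were all of ABCC4, lower in TIG1A cells on each probe set, with log2 differences of −0.62 (−0.93 to −0.30, adjusted p = 0.127), −0.52 (−0.81 to −0.23, adjusted p = 0.149) and −0.90 (−1.39 to −0.41, adjusted p = 0.143 by limma). Every TIG1A array lay below every TIG1B array on all 3. The ABCC4 difference between the lines was thus larger than the spread in single tests and did not pass after adjustment over the whole array. The median over the member probe sets was −0.45, beside 0.00 over all measured probe sets. In the F test for any difference among the 3 groups, the first and second ABCC4 probe set passed (adjusted p = 0.023 and 0.0194 by limma, beside 4.07% of all), and PTGER4 had 0.0596.

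Neighbours on the chromosome were described because the lines are clones. Over the 24 nearest measured genes of ABCC4, 12 on each side from UCHL3 to DOCK9-DT, the median log2 fold change in TIG1A cells was −0.19, with 9 above and 15 below 0, and 2 fell while 0 rose. In TIG1B cells it was −0.01. Over the 24 neighbours of PTGER4, from IL7R to ANXA2R, the median was −0.12 in TIG1A cells (10 above and 14 below 0, 2 fell and 0 rose) and 0.10 in TIG1B cells (18 above and 6 below 0). In TIG1A cells PTGER4 lay above its neighbourhood and the first and second ABCC4 probe set below theirs. This goes with their having passed there, so it is no separate evidence. In TIG1B cells PTGER4 (0.85) lay above, and the first and second ABCC4 probe set (−0.40 and −0.48) below, the neighbour median. The third ABCC4 probe set (0.33) lay above it. Whether the clones differ along these regions was not tested. The medians around all 10 members lay between −0.43 and 0.23.

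Genes that act before, beside and after PGE2 were read from 8 lists, with 145 measured probe sets of 61 genes. In TIG1A cells 9 probe sets rose and 6 fell by limma, beside the 2.86% and 3.2% of all probe sets given above, and their median log2 fold change was −0.09 (0.07 after centring each array on its median). This count depended on the arrays used. It was 0 higher and 1 lower without TIG1A replicate 2 and likewise without TIG1A replicate 3, 5 and 2 without control replicate 2, and 15 and 8 without control replicate 1. Of the calls named below, those of KHSRP (5 of 20 alternative settings), LTA4H (6), FKBP5 224840_at (7), MGLL (8) and PTGR1 (8) held least often. That of SLCO4A1 (17) held most often. With 1 array left out, the calls of KHSRP and LTA4H each held in 1 of 9 fits. In TIG1B cells 0 of 145 passed by limma, beside 1.78% of all measured probe sets (29 at an unadjusted p under 0.05, beside 18.5%). Between the TIG1 lines 0 passed, beside 0.417% (29 unadjusted, beside 13.3%). The counts of each list below stand beside these same shares over all measured probe sets.

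Arachidonate release and re-uptake covers the phospholipases and lipases that free the substrate. Of 22 measured probe sets, 1 fell in TIG1A cells and 21 did not pass. MGLL, a lipase that frees arachidonate from a monoacylglycerol, read 941, 773 and 448 on the control arrays and 354, 209 and 218 on the TIG1A arrays of probe set 225102_at, with no overlap. Its log2 fold change was −1.45 (adjusted p = 0.0396 by limma), and in TIG1B cells the signal was 563 ± 59.8 against 721 ± 251 in control cells. The other MGLL probe set had −0.42 (adjusted p = 0.286), so that the fall rests on 1 of 2 probe sets.

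Of 15 probe sets of other prostanoid synthases and reductases, 2 rose in TIG1A cells. AKR1C3, a reductase that forms prostaglandin F from other prostaglandins and has near-identical sister genes whose RNA its probes may share, read 132, 52.2 and 105 on the control arrays and 462, 392.4 and 365 on the TIG1A arrays. This was a 4.51-fold rise (log2 fold change 2.17, SE 0.32, adjusted p = 0.0148 by limma), with 135 ± 13.8 in TIG1B cells, close to control. PTGR1 acts on leukotriene B and reduces the keto-prostaglandins left by HPGD. On probe set 228824_s_at it was 5411 ± 357 in TIG1A against 2490 ± 898 in control cells (log2 fold change 1.18, adjusted p = 0.0348 by limma). A second PTGR1 probe set, 231897_at, had 0.92 (adjusted p = 0.0661).

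None of the 9 probe sets of other prostanoid receptors passed by limma in either line. At an unadjusted p under 0.05 there were 0 in TIG1A and 2 in TIG1B cells (all: 25% and 18.5%). These 9 belong to 4 genes, and none was left when the filter was set at the 75th percentile. In TIG1A cells 8 of 9 lay below 0 with a median of −0.56, beside 15964 of all 29977 measured probe sets and a median of −0.04. The list median ran from −0.91 to −0.14 with 1 array left out, and was −0.17 with 50 added before log2. The smallest p in TIG1A cells belonged to TBXA2R, the thromboxane receptor, at 211 ± 45.7 against 308 ± 37.6 (log2 fold change −0.56, adjusted p = 0.207 by limma). In TIG1B cells it belonged to PTGER1, the EP1 receptor, on probe set 214391_x_at (adjusted p = 0.139 by limma). This probe set lay below the array median on all control and TIG1A arrays and read 101, 43.7 and 118 in TIG1B cells. The filter thus kept it through the TIG1B arrays alone, where it was high, so its p gives no support for a rise. Of 7 probe sets of lipoxygenase and leukotriene genes, 1 rose in TIG1A cells. This was LTA4H, the enzyme that makes leukotriene B, at 10880 ± 334 against 6221 ± 1381 (log2 fold change 0.83, adjusted p = 0.0407 by limma), with 9117 ± 1117 in TIG1B cells.

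Relatives of ABCC4 and SLCO2A1 gave 17 measured probe sets, of which 2 fell in TIG1A cells. SLCO4A1, an organic anion transporter with prostaglandins among its known substrates, was 580 ± 32.7 against 1462 ± 235 in control cells (log2 fold change −1.32, adjusted p = 0.0106 by limma) and 924 ± 100 in TIG1B cells. ABCC1, which encodes the multidrug resistance protein MRP1, was 469 ± 34.8 against 952 ± 160 (log2 fold change −1.01, adjusted p = 0.0173) and 614 ± 42.0 in TIG1B cells. On both, as on the first and second ABCC4 probe set, no groups overlapped and TIG1B lay between control and TIG1A. Both are named because they passed in TIG1A cells, which goes with separation from control. Of all measured probe sets, 30.7% (TIG1A) and 24.9% (TIG1B) did not overlap control, and 24.1% did not overlap between the lines. How common this order is over the array was not tested. The other ABCC1 probe set, 202804_at, had −0.14 (adjusted p = 0.645), and the other SLCO4A1 probe set, 229239_x_at, had an adjusted p of 0.481 by limma with all control arrays below their medians. The filter thus kept 229239_x_at only through arrays of a TIG1 line, so it gives no support for a fall.

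CREB-responsive genes lie downstream of EP2 and EP4, among many other inputs. Of 23 measured probe sets, 4 rose in TIG1A cells, all of the nuclear receptor genes NR4A2 and NR4A3, which are immediate early genes. NR4A2 read 382, 527 and 494 on the control arrays, 1473, 1113 and 1127 on the TIG1A arrays and 661, 483 and 442 on the TIG1B arrays of probe set 216248_s_at. Only the TIG1A arrays stood apart, with a log2 fold change of 1.41 (adjusted p = 0.0166 by limma). NR4A3 read 294, 243 and 629 on the control arrays, 1603, 1577 and 1312 on the TIG1A arrays and 514, 636 and 495 on the TIG1B arrays of 207978_s_at, again with TIG1A alone above the rest (log2 fold change 2.07, adjusted p = 0.019 by limma). A further probe set of each gene passed (log2 fold changes of 1.24 and 2.04), and the last probe set of each did not (1.05 with an adjusted p of 0.115, and 0.19 with 0.665). The median over the list was 0.56 in TIG1A and −0.16 in TIG1B cells. Between the lines, 21 of 23 were higher in TIG1A cells with a median difference of 0.78, beside 15004 of all 29977 measured probe sets. Here 0 passed by limma (smallest adjusted p 0.0684), with 14 at an unadjusted p under 0.05 (all: 13.3%).

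Regulators that bind PTGS2 messenger RNA, many of which destabilise it, gave 32 measured probe sets. In TIG1A cells 3 fell, 0 rose and the median was −0.33. HNRNPD, the RNA-binding protein AUF1, was 256 ± 11.02 against 538 ± 17.8 on probe set 221480_at (log2 fold change −1.07, adjusted p = 0.0146 by limma), while none of its remaining probe sets passed. ZFP36L1, a decay factor of the tristetraprolin family, was 129 ± 35.5 against 403 ± 108 on 211965_at (−1.65, adjusted p = 0.021), and its probe set 211962_s_at had −0.29 (adjusted p = 0.314). KHSRP, which also directs messenger decay, was 108 ± 16.5 against 392.5 ± 196 on 204371_s_at (−1.74, adjusted p = 0.0456 by limma), and its probe set 204372_s_at had −0.58 (adjusted p = 0.0956). The array also carries 213277_at and 213284_at for ZFP36L1, and 212303_x_at and 227555_s_at for KHSRP. None of these passed, so the fall of each gene rests on a single probe set. PTGS2 itself stayed dim in all groups, as given above.

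HSP90 and its cochaperones, the partners of PTGES3 in its chaperone role, gave 20 measured probe sets, of which 2 rose in TIG1A cells. Both were of FKBP5, a cochaperone of steroid receptors that is itself induced by steroid hormones. It was 3078 ± 369 against 1775 ± 118 on probe set 204560_at (log2 fold change 0.79, adjusted p = 0.0221) and 11620 ± 503 against 6609 ± 1260 on 224840_at (0.83, adjusted p = 0.0368 by limma). The third, 224856_at, had 0.45 (adjusted p = 0.109). In TIG1B cells the means of all 3 lay between those of control and TIG1A cells.

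**Figure D4:**
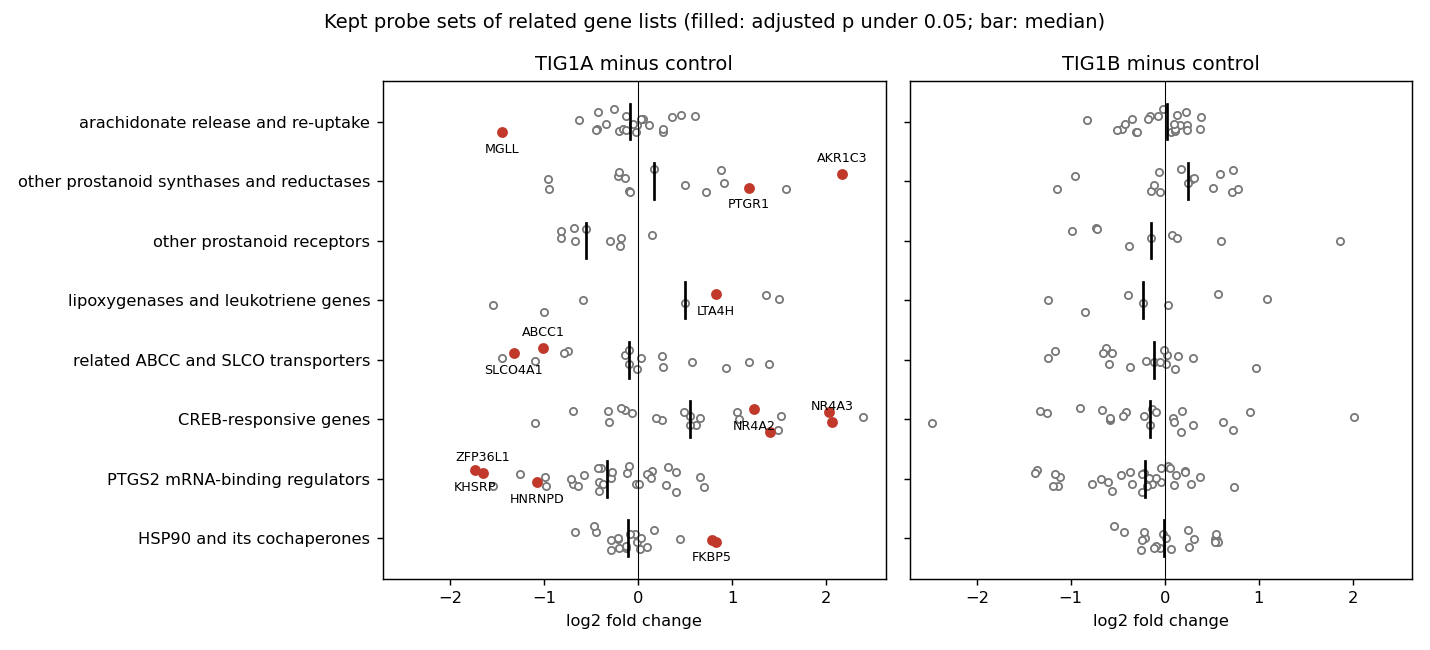
Log2 fold change (horizontal axis) of every measured probe set of the 8 lists, for TIG1A (left) and TIG1B (right) against control; filled and named points have an adjusted p under 0.05 by limma, and the vertical bar is the median of the list. The left panel has 15 filled points, with the NR4A genes and AKR1C3 farthest to the right among them, and the right panel has 0.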

How the data were processed

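Biotin-labelled RNA of 9 cultures was hybridised to HG-U133 Plus 2.0 arrays; the submitters name GCOS as the software. The deposited intensities are linear, with 1 value for each probe set, and had been scaled globally by the authors; a mean that leaves out the top and bottom 2% of each array was checked to be equal across arrays. Detection calls were not used here.

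After removal of 62 array controls, probe sets were kept where at least 2 of 3 arrays in some group were at or over their 50th percentile, leaving 29977 (13407 genes). Values were raised to at least 1 and log2 transformed. Group means were fitted over all 9 arrays with limma 3.58.1 in R 4.3.3, leaving 6 residual degrees of freedom (median prior 1.84). Moderated tests were adjusted by Benjamini-Hochberg over all kept probe sets, with a threshold of 0.05. The study's methods call the triplicates independent samples; with 3 arrays a group, precision is limited by their number.

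The array annotation gives 1 symbol for 41097 probe sets (41043 found by gene number in the GRCh38 table that gave the coordinates), several for 1801 and none for 11777. Promoter windows came from RefSeq. Members and lists were chosen with earlier results of these data known. All member probe sets are reported; of each list, up to 3 genes with the smallest p among those past the threshold, or else the one with the smallest p, are named. For 10 list and marker genes no probe set carried their symbol alone. Alternatives were quantile normalization, centring on medians, adding 50 before log2, keeping all probe sets, keeping those (14825) at the 75th percentile, fitting only the 6 arrays compared, a replicate block, trend with robust eBayes, the t-tests and analysis of variance of the study's methods (without and with adjustment), and leaving out each array.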

Additional observations from a re-analysis of the deposited data

How the results depend on the processing

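The 3 member probe sets (of 2 genes, ABCC4 and PTGER4) that passed in TIG1A cells became 0 with no filter and 0 with the 6 arrays alone. They became 1 to 4 with 1 array left out (1 without TIG1A replicate 3). By the methods' test without adjustment 4 passed, and under the other settings 2 to 3. In TIG1B cells the 0 became 1 with the filter at the 75th percentile and 3 by the methods' test without adjustment, and 0 to 1 with 1 array left out. Between both TIG1 lines the 0 became 3 with the 75th percentile filter, 1 with trend and robust options and 5 by the methods' test without adjustment. In the F test the 2 became 1 after median centring, 0 with no filter, 0 with a term for the replicate number, 4 with trend and robust options, 4 by the methods' test without adjustment, 0 to 4 with 1 array left out (0 without control 2, any TIG1A array, TIG1B 2 or TIG1B 3, and 4 without control 1), and 0 without both arrays numbered 1 of the TIG1 lines, a setting chosen after seeing the data.

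Replicate numbers were not used as pairs in the main fit. Deviations of same-numbered arrays correlated at -0.037 to 0.192. The highest value was that of TIG1A and TIG1B replicate 1, whereas TIG1A replicate 1 reached at most -0.117 with the other TIG1B arrays. The remaining same-numbered pairs reached at most 0.064. What the 2 arrays numbered 1 share was not tested. With the replicate number as a block, 2 probe sets passed in TIG1A cells, both of ABCC4, with PTGER4 at an adjusted p of 0.0525, and 637 in place of 1818 probe sets over the array. Over the whole array 59 probe sets passed with no filter, 166 with the 6 arrays alone and 121 by the methods' test after adjustment. Signs turned only for member values that did not pass the test. PTGS1 in TIG1A cells had 0.163 (quantile), 0.096 (centring) and -1.244 to 0.598 with 1 array left out (0.441 without control 2), and in TIG1B cells -0.325 to 1.517. PTGES in TIG1B cells had -0.027 to 0.282 on 207388_s_at with 1 array left out, and on 210367_s_at -0.297 to 0.208 (0.017 without TIG1B 1, and 0.017 without both arrays numbered 1), 0.022 (quantile) and 0.109 (centring). In TIG1B cells PTGES2 had -0.04 to 0.28 (-0.04 without both arrays numbered 1), PTGES3 0.035 (centring) and SLCO2A1 -1.148 to 0.263, and PTGER4 between the lines had -0.009 to 0.204 with 1 array left out. Centring moved the median of all probe sets from -0.04 to 0.12 (TIG1A) and from -0.03 to 0.12 (TIG1B), the neighbours of ABCC4 to -0.026 and 0.133, and those of PTGER4 to 0.042 and 0.241. With 6 neighbours on each side, the ABCC4 value in TIG1B cells was -0.112, and the PTGER4 values were 0.005 and 0.169. Centring also turned the medians of 3 lists in TIG1A cells above 0 (arachidonate 0.077, transporters 0.071, HSP90 0.056), as quantile normalization did for transporters (0.006). The causes were not tested. Of the member fold changes under alternatives, 539 kept their sign and side of the threshold, 17 no longer passed and 16 newly passed. For the methods' test without adjustment, these counts use its unadjusted p.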
